A study of Drosophila melanogaster with 2 samples.

Results

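Structural cuticle protein genes had a gem-GFP peak at their promoters less often than protein-coding genes as a whole. Their share with a peak within 5 kb but beyond 500 bp of every TSS was closer to that of all protein-coding genes. The set was every protein-coding gene whose symbol starts with Cpr, Ccp84 or Lcp, or is Pcp or Acp1, which gave 95 of the 13945 protein-coding genes in the release 6 models. It was chosen by symbol alone and used no peak. The symbol rule also takes Cpr, whose full RefSeq name is Cytochrome P450 reductase. Cpr is an electron donor for P450 enzymes and not a cuticle protein, so the label holds for 94 of the 95 genes. Of these, 78 have a full RefSeq name that calls them cuticle proteins and 16, all Lcp65A or Ccp84A genes, have no full name in the table used.

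The data were chromatin immunoprecipitation followed by sequencing (ChIP-seq) on whole Drosophila melanogaster embryos, aged 0 to 24 h and of both sexes pooled. The embryos came from a transgenic line that stably expresses gem (gemini, a transcription factor of the CP2 and Grainyhead family) with GFP at its C-terminus, and the precipitation used an antibody against GFP. There was 1 group with 2 samples, biological replicates 1 and 4 of that line, and both carry the transgene. Embryos of the whole day and all tissues were pooled, so binding in a small tissue or a short period cannot be told apart from weak binding in many cells.

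The insect cuticle is an extracellular layer that epidermal cells secrete at their outer surface, and it is built of chitin fibres and structural proteins. The Cpr, Lcp, Ccp84, Pcp and Acp1 proteins belong to the CPR family, named for the Rebers and Riddiford consensus, a domain that binds chitin. Late in embryogenesis the epidermis lays down the first larval cuticle, and later moults use other subsets of the same family. Many of these genes are short and stand in tandem clusters. Grainyhead, a relative of gem, is known as a regulator of epidermal barrier genes in flies.

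The sequences below are 101 bp about the summits of the promoter peaks at the 4 cuticle genes that had an IDR promoter peak, and of 3 of the strongest distal peaks near cuticle genes, since these carry the results that follow. They were read from the release 6 RefSeq genome, plus strand, 5′ to 3′. Capitals mark AACCGGTT, a palindromic sequence recognised by Grainyhead-family proteins, and the other letters are in lower case.
Cpr65Av promoter peak, chr3L:6140311-6140411: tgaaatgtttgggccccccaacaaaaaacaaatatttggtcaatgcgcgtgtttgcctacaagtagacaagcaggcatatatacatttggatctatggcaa
Cpr65Ea promoter peak, chr3L:7086807-7086907: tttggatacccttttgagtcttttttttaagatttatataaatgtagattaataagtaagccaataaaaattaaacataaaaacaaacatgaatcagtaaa
Cpr67Fa1 promoter peak, chr3L:10889471-10889571: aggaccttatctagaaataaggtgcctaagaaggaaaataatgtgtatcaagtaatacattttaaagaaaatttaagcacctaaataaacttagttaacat
Cpr73D promoter peak, chr3L:16957948-16958048: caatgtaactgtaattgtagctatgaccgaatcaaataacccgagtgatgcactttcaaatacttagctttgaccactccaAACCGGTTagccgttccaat
Cpr76Ba distal peak, chr3L:19516681-19516781: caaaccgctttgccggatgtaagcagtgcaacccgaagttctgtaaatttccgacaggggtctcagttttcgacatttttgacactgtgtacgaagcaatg
Cpr67Fb distal peak, chr3L:10893510-10893610: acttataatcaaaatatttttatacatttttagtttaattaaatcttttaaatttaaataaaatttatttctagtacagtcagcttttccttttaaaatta
Cpr65Eb distal peak, chr3L:7090910-7091010: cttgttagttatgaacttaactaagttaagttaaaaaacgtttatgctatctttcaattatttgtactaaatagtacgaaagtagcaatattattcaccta
Of these 7 windows, that at Cpr73D held the motif.

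Peaks were read from 4 lists on assembly dm6: peaks called on replicate 1, on replicate 4, on both replicates pooled, and a list filtered by IDR, the irreproducible discovery rate, which keeps peaks ranked alike in the replicates. The IDR list held 11045 peaks and the other lists 30000 each. The signal of a peak is the authors' own value from the caller. Its scale differs between lists, so signals are ranked against other peaks of the same list. A ratio between the replicates is set against the same ratio over all IDR peaks. The median IDR signal was 432 and the range 187 to 17818. The lists do not give the read depth, and no list from an untagged line was analysed here, so how much of the signal arises without gem-GFP was not tested.

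A promoter peak is here a peak whose summit lies within 500 bp of an annotated transcription start site (TSS). In the IDR list, 5 of the 95 genes had a promoter peak (5.26%, Clopper-Pearson 95% interval 1.73 to 11.9%), against 24.6% of all protein-coding genes. Without Cpr, 4 of 94 cuticle genes had a promoter peak, or 4.26% (1.17 to 10.5%). These 4 were Cpr65Av, Cpr65Ea, Cpr67Fa1 and Cpr73D, all on arm 3L. In the pooled list, 11 genes had a promoter peak (11.6%, interval 5.92 to 19.8%), against 35% of all protein-coding genes. The replicate 1 list gave 8 genes (8.42%), against 34.5%, and the replicate 4 list gave 13 genes (13.7%), against 38.6%. In each of the 4 lists the upper end of the interval lay below the share of all protein-coding genes. The intervals cover counting error only. Neighbouring genes of a cluster share a region and are not independent, and the difference itself was not tested.

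A gene with 1 TSS has 1 promoter window, and 90.4% of the cuticle genes had 1 TSS, against 73.5% of all protein-coding genes. Among genes with 1 TSS, 3 of 85 cuticle genes had an IDR promoter peak (3.53%, interval 0.734 to 9.97%), against 18.4% of 10246 protein-coding genes. The pooled list gave 10.6% of these 85 genes, against 27.2%, the replicate 1 list 7.06%, against 26.7%, and the replicate 4 list 11.8%, against 30.5%. Among genes with 1 TSS the share of the cuticle genes was thus also lower in each list. Whether the number of TSSs plays a part was not tested.

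A distal peak is here a peak with its summit beyond 500 bp of every TSS and within 5 kb of the gene. In the IDR list, 25 of the 95 genes had at least 1 distal peak (26.3%, interval 17.8 to 36.4%), against 33.4% of all protein-coding genes. The interval contains the share of all protein-coding genes. In the pooled list, 41 genes had a distal peak (43.2%), against 50.5%. The replicate 1 list gave 46 (48.4%), against 50.9%, and the replicate 4 list gave 48 (50.5%), against 53.2%. The interval of each contains the share of all protein-coding genes. Among genes with 1 TSS, distal peaks were near 27.1% of the cuticle genes in the IDR list, against 28.7%, and near 45.9% in the pooled list, against 45.8%. In replicate 1 they were near 51.8%, against 46.1%, and in replicate 4 near 51.8%, against 48.4%. Distal shares of the set were thus close to the background. A longer gene has a wider search window, and the median gene length was 892 bp for the 95 genes and 2166 bp for all protein-coding genes.

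**Figure D1:**
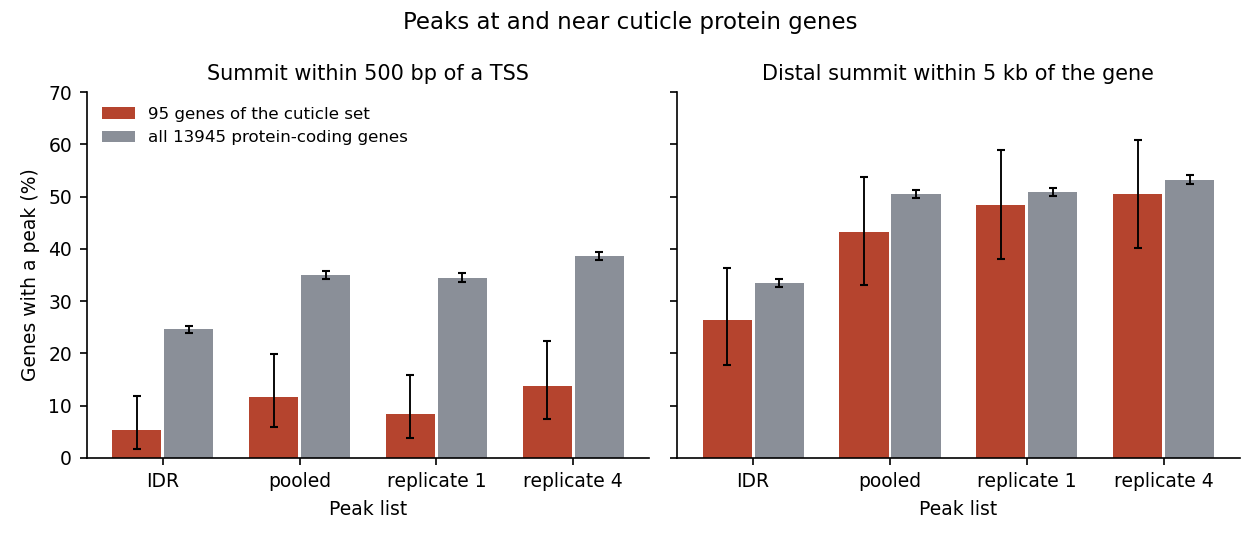
Share of genes (%, vertical axis) with a peak summit within 500 bp of a TSS (left) and with a distal summit within 5 kb (right) in each of the 4 peak lists, for the 95 genes (red) and all 13945 protein-coding genes (grey); error bars are Clopper-Pearson 95% intervals. At promoters the red bars run from 5.26 to 13.7% and the grey bars from 24.6 to 38.6%, and for distal peaks each red interval includes the height of the grey bar.

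Counting a peak of either kind, 26 of the 95 genes had an IDR peak (27.4%), against 45.7%, and 43 had a pooled peak (45.3%), against 58.9%. In replicate 1 the count was 48 (50.5%), against 59.2%, and in replicate 4 it was 49 (51.6%), against 61.8%. Every gene with an IDR promoter peak other than Cpr also had a distal IDR peak. No peak of either kind was found in any of the 4 lists for 40 of the 95 genes (42.1%, interval 32 to 52.7%), against 33.9% of all protein-coding genes. By position, the first of these are Pcp (pupal cuticle protein), Acp1 (adult cuticle protein), Cpr30B, Cpr30F, Lcp1 and Lcp2 (larval cuticle proteins).

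Both kinds leave out peaks that lie within 500 bp of the TSS of a gene outside the set. There were 10 such IDR peaks within 5 kb of 9 genes of the set. The strongest, of 8560, stood 89 bp from the TSS of CG11309 and 3398 bp from Cpr78Cc. Others were a peak of 1199 that is 226 bp from the TSS of Gart and 1654 bp from Pcp, and a peak of 189 that is 15 bp from the TSS of Pex2 and 471 bp from Cpr66Cb. With every IDR summit within 5 kb of the gene counted, whichever TSS it is near, 30 of the 95 genes had one (31.6%, interval 22.4 to 41.9%), against 58.7% of all protein-coding genes. That interval lies below the share of all protein-coding genes. Longer genes have wider windows, and how far this bears on the gap was not tested. Measured from a TSS rather than from the gene, the shares within 5000 bp were 31.6 and 52.6%.

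The distance from a TSS to the nearest IDR summit had a median of 10121 bp for the 95 genes, against 4437 bp for all protein-coding genes and 5592 bp for those with 1 TSS. Within 1000 bp of a TSS, 8.42% of the 95 genes had a summit, against 29% of all protein-coding genes. Within 5000 bp the shares were 31.6 and 52.6%, and within 20000 bp they were 78.9 and 88.1%. The curves stood apart by a similar amount from 500 to 10000 bp and drew together beyond it. At the 500 bp limit, the genes just inside were Cpr65Av at 387 bp and Cpr67Fa1 at 469 bp, and those just outside were Cpr67Fb at 613 bp and Cpr65Az at 732 bp. At the 5 kb limit, Cpr76Bc at 4214 bp and Lcp65Af at 4447 bp were inside, and Cpr64Ad at 5247 bp and Lcp65Ab2 at 5436 bp were outside.

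**Figure D2:**
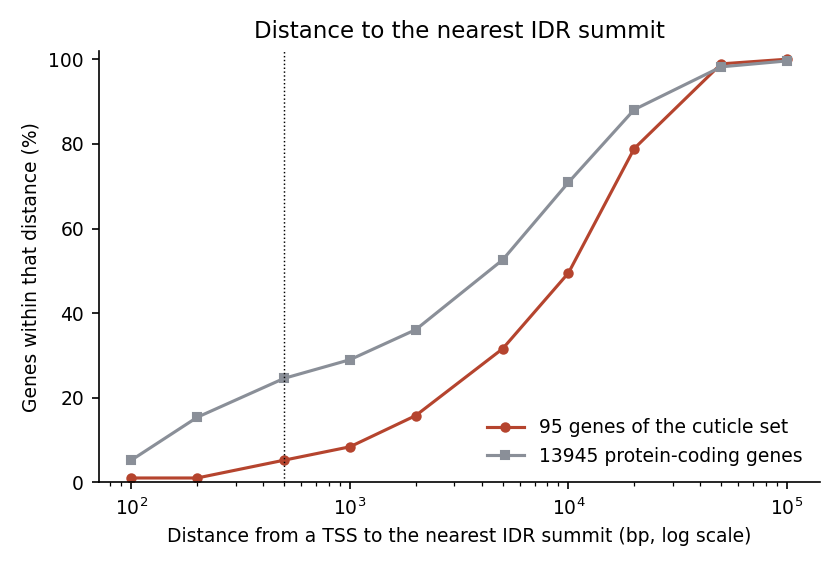
Share of genes (%, vertical axis) whose nearest IDR summit is no further from a TSS than a given distance (bp, log axis) for the 95 genes (red circles) and all protein-coding genes (grey squares); the dotted line marks 500 bp. The red curve lies below the grey one up to 20000 bp, with 49.5 and 70.9% at 10000 bp.

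The IDR promoter peaks of the set were 6 distinct peaks. At the cuticle genes the strongest was that of Cpr67Fa1, with an IDR signal of 504, 352 in replicate 1 and 146 in replicate 4, and its summit 469 bp upstream of the TSS. The peak of Cpr73D had 483 in the IDR list, 269 in replicate 1 and 218 in replicate 4. Its summit lay 309 bp upstream of a Cpr73D TSS and inside an intron of the neighbouring gene Ogdh, which encodes a subunit of the oxoglutarate dehydrogenase complex. The peak of Cpr65Ea had 476 in the IDR list, 366 in replicate 1 and 111 in replicate 4, at 249 bp upstream. That of Cpr65Av had 307 in the IDR list, 210 in replicate 1 and 94.2 in replicate 4, at 387 bp upstream. All 4 lay upstream of the TSS. All 4 were matched in both replicates, as were 10416 of all 11045 IDR peaks. The IDR filter itself keeps peaks ranked alike in the replicates.

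Cpr, the P450 reductase gene, carried the strongest promoter peak of the set. Its signal was 804 in the IDR list, 561 in replicate 1 and 240 in replicate 4, with the summit 11 bp upstream of a TSS. A weaker peak in its 5′ UTR, 189 bp downstream, had 295 in the IDR list and 87.8 in replicate 4, with no replicate 1 summit within 100 bp. Within 200 bp of a TSS, Cpr was the only gene of the set with an IDR summit.

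The 6 promoter peaks of the set lay in the middle of the list by signal. Their median IDR signal was 480, against 605 over the 3062 promoter peaks of all protein-coding genes and 432 over all IDR peaks, 4 of the 6 were above 432, and they ranked between 2975 and 7748 of 11045. The replicate 1 signal was a median of 2.34 times that of replicate 4 at these peaks, against 2.44 times over all IDR peaks, so the ratio between replicates at these peaks was near that of the list.

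Below the IDR threshold, 6 further cuticle genes had a promoter peak in the pooled list. They were Cpr67Fb with a pooled signal of 173, Cpr12A with 113, Cpr78Cc with 112, Cpr65Ay with 58, Cpr51A with 54.9 and Cpr65Aw with 50.2. The pooled list runs from 41 to 17818 with a median of 117, so 5 of these 6 lay under its median. Between replicates, 8 genes had a promoter peak in both replicate lists, 5 in replicate 4 alone and 0 in replicate 1 alone. The 5 were Cpr31A, Cpr65Aw, Cpr65Ay, Cpr78Cb and Lcp65Ae. Replicate 4 also listed more promoters over all protein-coding genes, at 5382 genes against 4810 in replicate 1. The overlap of the replicate lists was not counted over all genes, so the 8, 5 and 0 are not read as a trait of the set. Over the 4 lists together, 14 genes had a promoter peak in at least 1 of them, which was not counted over all genes either.

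The distal IDR peaks of the set were 23 distinct peaks, of which 21 had a summit within 100 bp in both replicates. Over all 7684 distal IDR peaks, 7269 did. The median signal of the 23 was 403, against 394 over all distal peaks. By position, 15 were intergenic and 8 lay in introns, 2 of them inside Cpr73D. For 15 of the 23 the nearest TSS was that of a gene of the set, and for the others it belonged to another gene. A single peak was within 5 kb of 2 or more of the genes in 9 cases, and of 6 genes in the extreme case, so genes outnumber independent peaks.

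The strongest distal peak stood 821 bp from Cpr76Ba, the first gene of the 76B cluster, at chr3L:19516580-19516896. It had an IDR signal of 1068, with 695 in replicate 1 and 369 in replicate 4. The same peak lay 2918 bp from Cpr76Bb and 4214 bp from Cpr76Bc, and it was the only pooled peak within 5 kb of the cluster's 4 genes.

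The peak 613 bp upstream of Cpr67Fb, between Cpr67Fa2 and Cpr67Fb, had 1060 in the IDR list and 729 in replicate 1. The replicate 4 list holds a peak with a signal of 344 over the same stretch, but its summit lies 506 bp from Cpr67Fb and so was not matched within 100 bp. The pooled list enters the same interval again with a further summit 384 bp from the TSS, with a signal of 173, which is the pooled promoter peak of Cpr67Fb given above. Whether Cpr67Fb counts as having a promoter peak therefore depends on the list.

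Cpr73D had a distal peak of 1025 in an intron (706 in replicate 1, 315 in replicate 4). That summit also lies in an Ogdh intron, 525 bp from an Ogdh TSS, because the genes overlap. A further Cpr73D intron peak of 547 (392 in replicate 1, 150 in replicate 4) lay 1536 bp from a Cpr73D TSS. The peak assigned to Cpr31A, with 956 (719 in replicate 1, 234 in replicate 4), stood 1506 bp from that gene but 541 bp from the TSS of Pen, an importin alpha gene, and inside a Pen intron. Distance alone does not tell which of these genes such a peak belongs to.

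In the 65E cluster, a peak at chr3L:7090826-7091122 had 893 in the IDR list, 633 in replicate 1 and 257 in replicate 4. It lay 2173 bp from Cpr65Eb, 2244 bp from Cpr65Ec and 4352 bp from Cpr65Ea, in the gap between divergent genes. Cpr51A had a single distal IDR peak of 883 (588 in replicate 1, 289 in replicate 4) at 3059 bp. Cpr47Ef and Cpr47Eg shared peaks of 751 and 347, whose nearest TSS was that of TpnC47D, a troponin C gene. Cpr100A had 4 distal IDR peaks, with signals of 520, 403, 398 and 230, the most of any gene of the set.

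**Figure D3:**
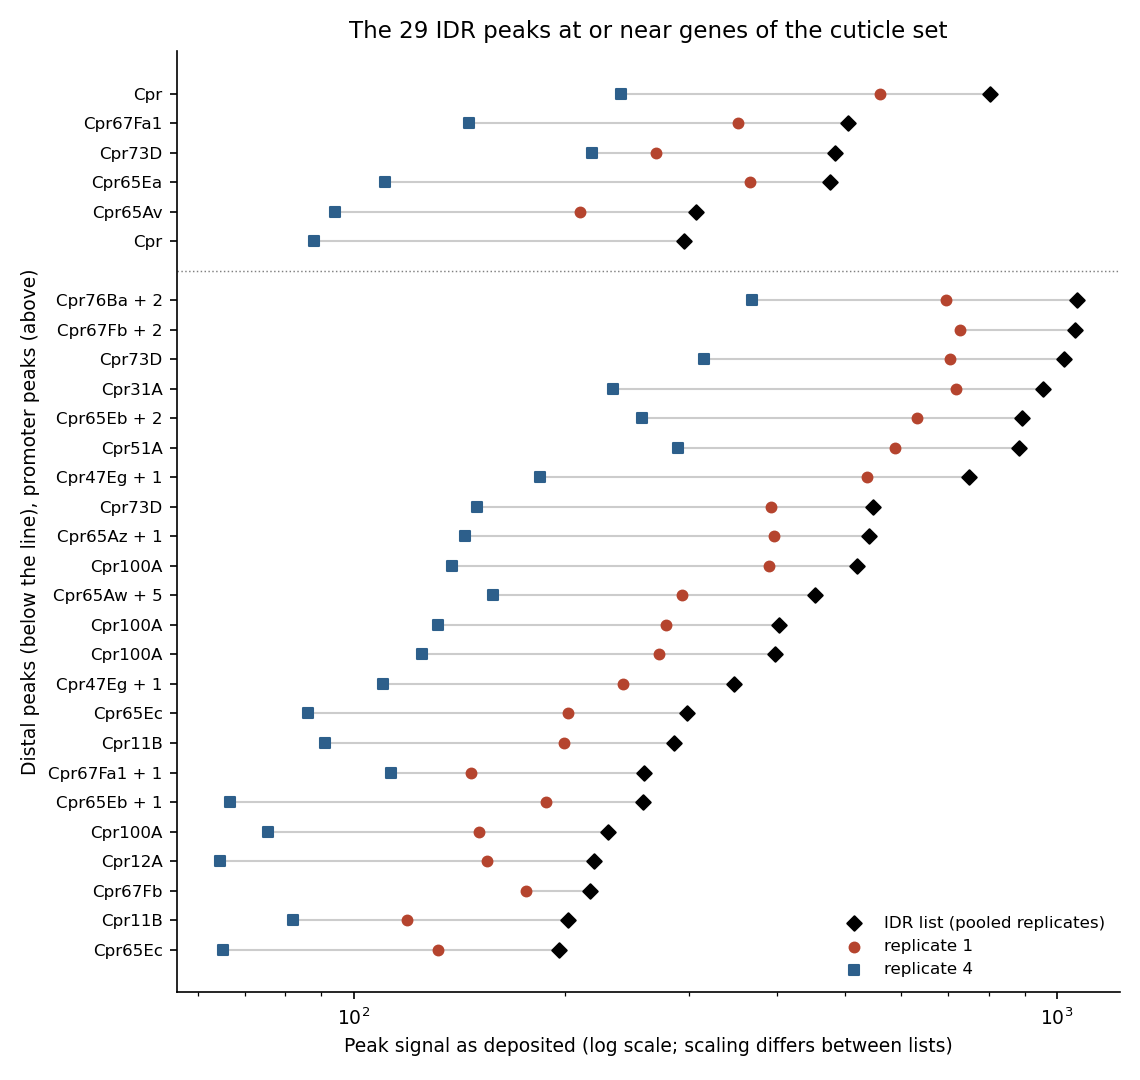
Signal (log axis, as deposited) of the 29 IDR peaks at or near the 95 genes, 1 row a peak with the nearest gene named and "+ n" for further genes within 5 kb; promoter peaks stand above the dotted line and distal peaks below it. Black diamonds are the IDR list, red circles replicate 1 and blue squares replicate 4; scaling differs between lists, and a missing symbol means no summit within 100 bp.

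Genes of the set were grouped where neighbours lay within 10 kb. This gave 15 clusters of 2 or more genes, with 70 genes, and 25 single genes. Of the 15 clusters, 5 had an IDR peak at or near a gene, and 10 had a pooled peak. The 5 clusters were 65A, 65E, 67F, 76B and 47E, and they held 19 of the 26 genes with an IDR peak. An IDR peak was thus at or near 19 of the 70 genes in clusters and 7 of the 25 single genes, against 45.7% of all protein-coding genes. By arm, 18 of the 45 genes on 3L had a distal IDR peak, near the 36.9% of all protein-coding genes of that arm, and 3 of the 26 genes on 2R did, against 27.6%.

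The 65A cluster is the largest, with 17 genes from Lcp65Ag3 to Cpr65Az in 31.2 kb of arm 3L. It had 3 IDR peaks and 10 pooled peaks by the promoter and distal definitions. These leave out an IDR peak of 827 (627 in replicate 1, 197 in replicate 4) that lies 276 bp from Cpr65Ay but 422 bp from the TSS of CG13297, a gene outside the set. The promoter peak of Cpr65Av is described above. A peak between Cpr65Av and Cpr65Aw had 453 in the IDR list, 293 in replicate 1 and 158 in replicate 4, and it lay within 5 kb of 6 genes, Cpr65Aw, Cpr65Av, Lcp65Ad, Lcp65Ae, Lcp65Ac and Lcp65Af. A peak of 540 (396 in replicate 1, 144 in replicate 4) stood 732 bp from Cpr65Az and 1452 bp from Cpr65Ay. The IDR peaks thus lay in the middle and at the Cpr65Az end, and the Lcp65Ag genes at the other end had pooled peaks of at most 105.

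With both kinds of peak counted, 15 of the 17 genes of 65A had a peak in replicate 1 and 15 in replicate 4. Over all protein-coding genes the shares were 59.2 and 61.8%. Genes of 65A lie close together and share peaks, so these are not counts of separate peaks. The 2 genes of 65A with none in any list were Lcp65Ab2 and Cpr65Ax1. Each has a near-identical copy in the cluster: Lcp65Ab1 and Lcp65Ab2 share a run of 413 identical bases, and Cpr65Ax1 and Cpr65Ax2 a run of 456. The peaks counted for Lcp65Ab1 and Cpr65Ax2 were intergenic and outside the copies. Among genes of the set they were nearest to Lcp65Aa. The nearest TSS was that of lncRNA:CR45421 or Acp65Aa, genes outside the set. These peaks had signals of 68.4 in the pooled list, 36.6 in replicate 1, and 31.4 and 19.6 in replicate 4. All of them lay beyond 5 kb of Lcp65Ab2 and Cpr65Ax1. How reads that match more than 1 place were treated is not given in the sources used here, so peaks inside such copies are uncertain. Whether this affected the calls at these genes was not tested.

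Of the 15 clusters, 65E and 67F had the most IDR peaks. The 3 genes Cpr65Ea to Cpr65Ec, in 7.84 kb, had 5 IDR peaks and 10 pooled peaks. The 3 genes Cpr67Fa1 to Cpr67Fb, in 4.7 kb, had 4 IDR peaks and 8 pooled peaks. Every gene of both clusters had an IDR peak. In 76B, 3 of 4 genes had one, all through a single peak, and in 47E 2 of 7 did.

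The larger clusters without an IDR promoter or distal peak were Lcp1 to Lcp4 (larval cuticle proteins), Cpr49Aa to Cpr49Ad, Cpr49Ae to Cpr49Ah, Cpr62B, Cpr64A, Cpr72E, Cpr78C and Ccp84A. The Ccp84A cluster, 7 genes in 18.2 kb of arm 3R, had no pooled peak. Replicate 1 listed peaks of 141 and 47.1 on the Ccp84Aa side, the first 4173 bp from that gene, and replicate 4 listed a peak of 27. The Cpr49Ae and Cpr49Af genes were near a replicate 1 peak of 201 that was in no other list. At Cpr78C, Cpr78Cc had a pooled promoter peak of 112, found in both replicates with 66.5 in replicate 1 and 49.1 in replicate 4.

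**Figure D4:**
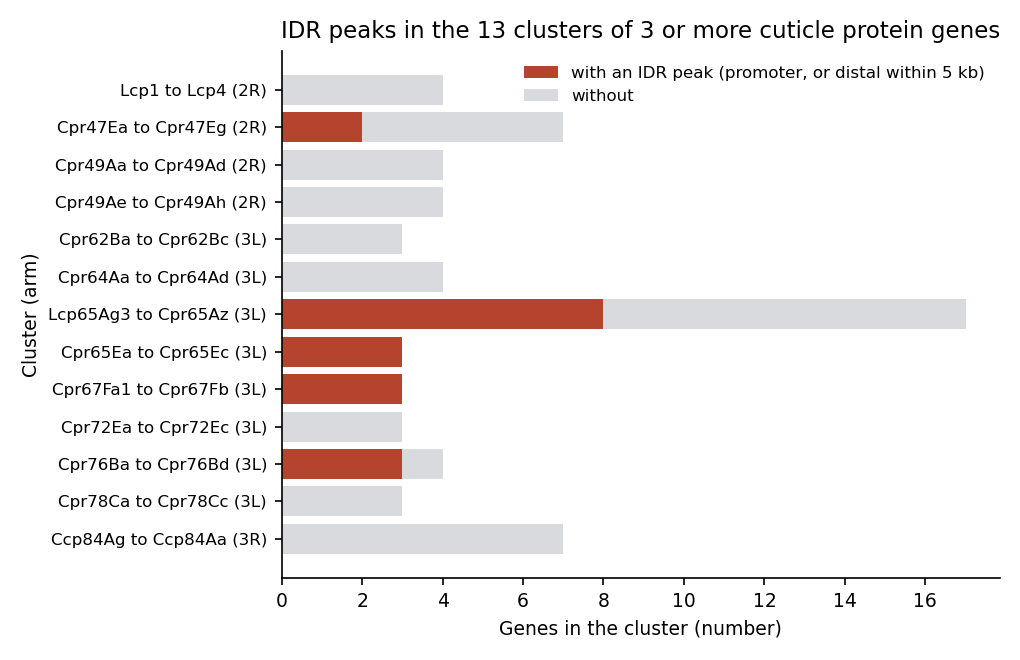
Number of genes (horizontal axis) with an IDR promoter or distal peak (red) and without (grey) in the 13 clusters of 3 or more cuticle protein genes, in genome order from top to bottom. Red is present in 5 clusters, with 8 of 17 genes in 65A, all 3 in 65E and 67F, 3 of 4 in 76B and 2 of 7 in 47E.

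**Figure D5:**
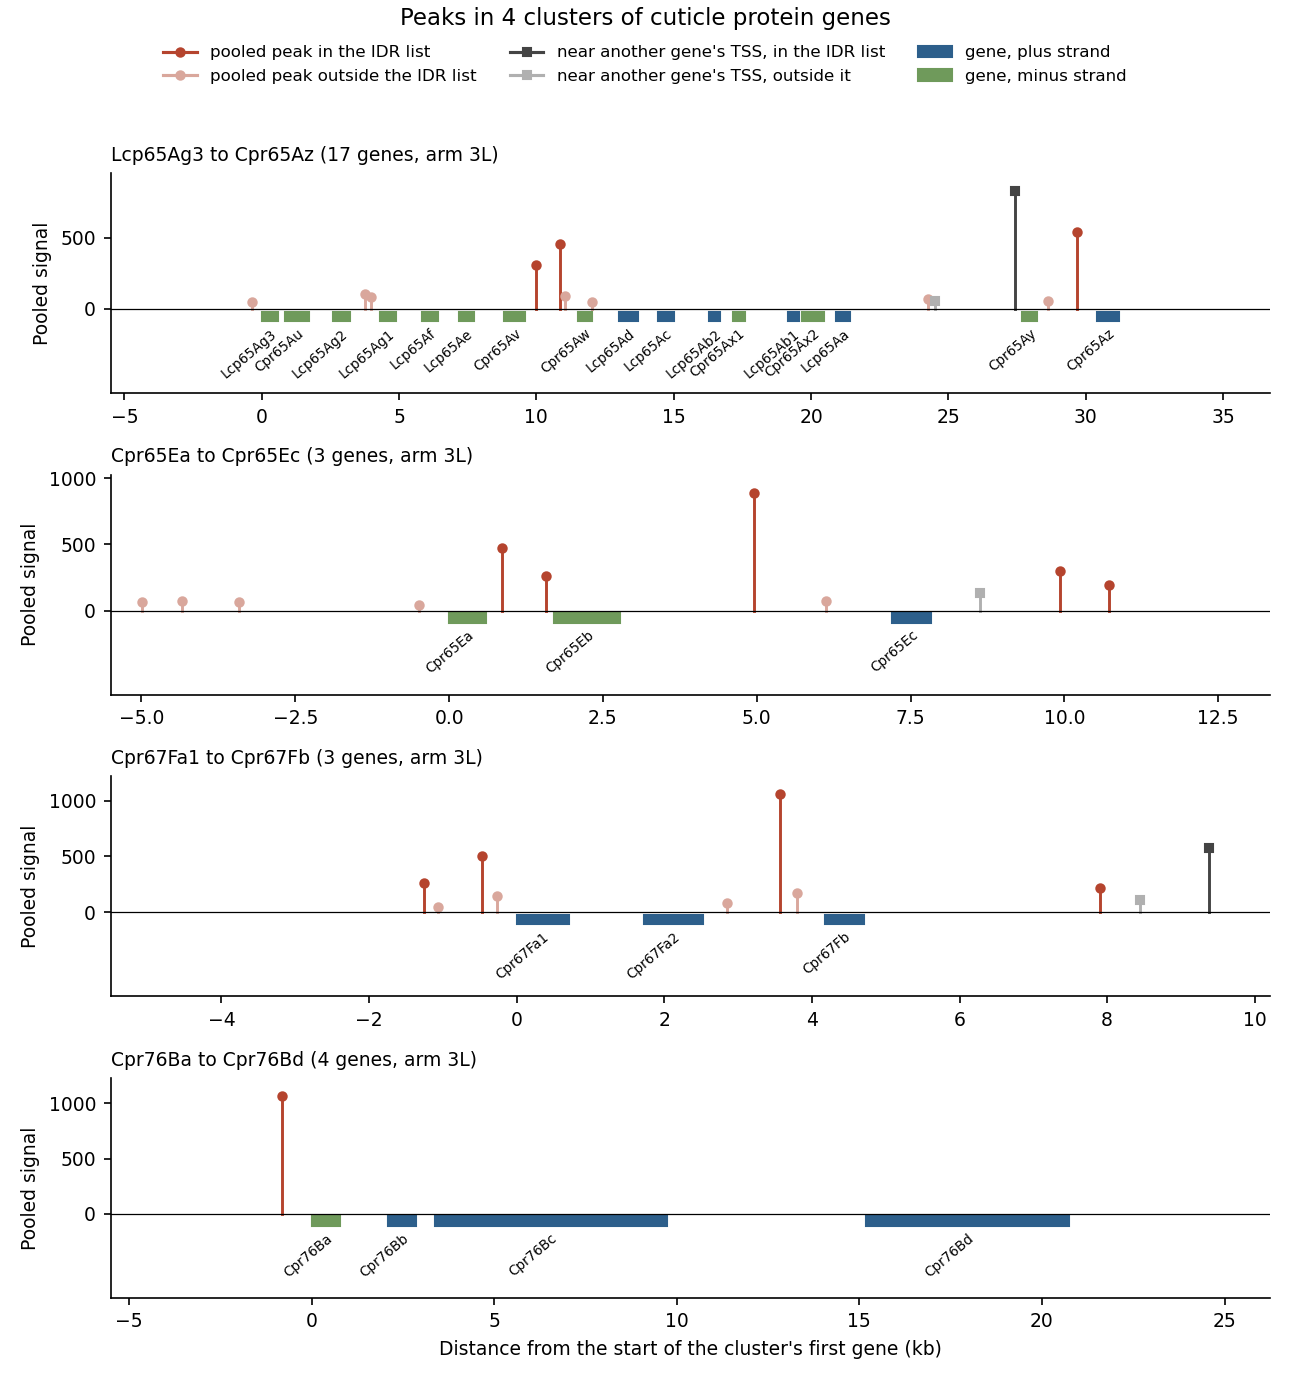
Summits of pooled peaks (vertical axis, pooled signal) along 4 clusters on arm 3L, against the distance from the start of the first gene (kb); dark red stems are also in the IDR list, pale ones are not, grey squares are peaks within 500 bp of the TSS of a gene outside the set (dark in the IDR list), and boxes are genes on the plus (blue) or minus (green) strand. The 65A panel has 3 dark red stems for 17 genes, and the 65E and 67F panels 5 and 4 for 3 genes each.

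By family, the 70 Cpr genes named for a chromosome band held all 4 promoter peaks of cuticle genes in the IDR list, and 21 of them had a distal IDR peak. Of all protein-coding genes, 33.4% had a distal IDR peak. Of the 15 Lcp genes, 0 had an IDR promoter peak and 4 a distal IDR peak, all 4 through the shared peak of 453 in 65A. The 7 Ccp84 genes, Pcp and Acp1 had 0 IDR peaks of either kind. By the exact Clopper-Pearson bound, a count of 0 allows a share of up to 21.8% of 15 genes and up to 41% of 7 genes, counting error only.

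The AACCGGTT match at Cpr73D, shown in capitals above, was at chr3L:16958029-16958036 and 35 bp from the summit. Both strands of the 101 bp about each summit were searched for 6 motifs, and a match is a description, not a site. AACCGG, the shorter sequence inside AACCGGTT, was at 1 of the 29 IDR peaks of the set (3.45%), that same match, against 1.35% of all 11045 IDR peaks. In windows centred 500 bp to either side it was at 3.45% for the set and 2.45% for all peaks. ACTGGTT was at 0 of the 29, against 1.1%. Likewise TATCGATA and GAGAGAG were at 0 of the 29, against 0.634 and 0.507% of all peaks. With 29 peaks, a share of this size amounts to 1 peak or less.

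TATAAA was counted at the summits and at the genes' own promoters. Within 50 bp of the summits it was at 4 of the 29 peaks (13.8%), against 28.5% of all IDR peaks. With so few peaks this gap is uncertain, and it was not tested. In the windows 500 bp to either side TATAAA was at 12.1% for the set and 10.3% for all peaks. At the genes' own promoters, from 250 bp before to 50 bp after the start, TATAAA was at 69 of the 95 genes (72.6%), against 45.8% of all protein-coding genes. On the gene's strand 40 to 15 bp before the start, it was at 52 genes (54.7%), against 7.73%. That narrow window was chosen after seeing the data. Its first base lay a median of 29 bp before the start in those 52 genes. TATAAA is the usual form of the TATA box, which places the start of transcription at strongly regulated genes.

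The 60 bp before the start on the gene's strand show this for the cuticle genes with an IDR promoter peak, and for 3 others of different families, with TATAAA in capitals.
Cpr65Av, chr3L:6139975-6140034, minus strand: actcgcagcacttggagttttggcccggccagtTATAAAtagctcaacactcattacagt
Cpr65Ea, chr3L:7086609-7086668, minus strand: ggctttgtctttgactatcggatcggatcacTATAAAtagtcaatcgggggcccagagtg
Cpr67Fa1, chr3L:10889930-10889989, plus strand: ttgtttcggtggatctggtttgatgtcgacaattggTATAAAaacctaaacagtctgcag
Cpr73D, chr3L:16957690-16957749, minus strand: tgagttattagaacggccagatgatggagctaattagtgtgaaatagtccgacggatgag
Lcp65Ad, chr3L:6143335-6143394, plus strand: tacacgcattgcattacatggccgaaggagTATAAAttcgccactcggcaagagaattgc
Ccp84Aa, chr3R:6704024-6704083, plus strand: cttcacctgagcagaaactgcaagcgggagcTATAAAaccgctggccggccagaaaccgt
Pcp, chr2L:7021622-7021681, plus strand: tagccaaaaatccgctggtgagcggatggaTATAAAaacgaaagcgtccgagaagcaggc
Of these, Cpr73D had no such match. By peak, 3 of the 5 genes with an IDR promoter peak, 14 of the 21 with a distal IDR peak alone (66.7%) and 35 of the 69 with no IDR peak (50.7%) had it. Whether these shares differ was not tested.

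Other motifs were searched in the same promoter windows. AACCGG was in the promoter window of 10 of the 95 genes (10.5%), against 7.06% of all protein-coding genes. These were Cpr30F, Cpr31A, Lcp3, Cpr49Aa, Cpr50Ca, Cpr65Eb, Cpr67B, Cpr72Eb, Cpr78E and Cpr11A, and of these Cpr31A and Cpr65Eb had a distal IDR peak and 0 an IDR promoter peak. With 5 promoter peaks in the whole set, 0 of 10 tells little. AACCGGTT was in 0 promoter windows of the set, against 0.753%. ACTGGTT was in 6.32%, against 4.51%, TATCGATA in 1.05%, against 9.36%, and GAGAGAG in 1.05%, against 5.87%.

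Other genes of cuticle formation were counted in the same way. Tweedle proteins, a separate family of insect cuticle proteins, were like the set at promoters, with 0 of 25 genes having an IDR promoter peak and 1 of 25 a distal IDR peak, TwdlQ with 253. Among 20 other cuticle and chitin-binding proteins, 2 had an IDR promoter peak, tyn with 1193 and pio with 230, which encode zona pellucida domain proteins of the apical matrix. A distal IDR peak was near 7 of these 20 (35%), against 33.4% of all protein-coding genes.

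A list of 25 genes covered chitin synthesis and deposition and also held chitinase and Idgf genes. In this list 9 genes had an IDR promoter peak (36%) and 12 a distal IDR peak (48%). Of the 9, Cht7, Idgf2, Idgf4 and Idgf6 are chitinase or Idgf genes. Of all protein-coding genes, 24.6% had an IDR promoter peak and 33.4% a distal IDR peak. Cht7, a chitinase, had a promoter signal of 2353, and Idgf2, an imaginal disc growth factor of the chitinase-like family, had 1378. Gfat2 and mmy, which act in the route to the sugar donor of chitin synthesis, had 910 and 486. kkv, the chitin synthase of the epidermal cuticle, had no IDR promoter peak and only a replicate 4 promoter peak of 27.4. Of 17 genes for hardening and pigment, 2 had an IDR promoter peak (11.8%) and 6 a distal IDR peak (35.3%, against 33.4%). DPCoAC and snsl had the strongest distal IDR peaks, of 1956 and 1636, and ple, tyrosine hydroxylase, had 922. Ddc, amd, e, b, yellow-e, yellow-f and yellow-f2 had no peak of either kind in any list.

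Among 15 regulators of the ecdysone response, which times the moults, 8 had an IDR promoter peak (53.3%) and 14 a distal IDR peak (93.3%). vri had a promoter signal of 2688, Eip75B 2475 and EcR, a subunit of the ecdysone receptor, 666. Of these 15 genes, 2 have a single TSS, so they offer more promoters than cuticle genes do. grh, which encodes Grainyhead, had a promoter signal of 1025 and a distal signal of 2998, and gem had 220 and 843. The promoter share was below the background of 24.6% in the cuticle set and the Tweedle genes. It was also below it in the other cuticle and chitin-binding proteins (10%) and the hardening and pigment genes (11.8%). In the ecdysone list, and in the chitin list with its chitinase and Idgf genes, the promoter share was above the background. These lists differ in gene length and TSS number, and the differences between them were not tested.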

How the data were processed

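Peak lists were used as deposited. Per the listings deposited with the samples, peaks were called on each replicate and on both together, with a further control input, and the IDR list was made from these, on dm6. The aligner, the caller, their versions and the IDR threshold are not given in the sources used here. The signal of each peak and its −log10 q-value were deposited by the authors, and the scale of the signal is not stated. Peaks were ranked by signal.

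Summits were set against TSSs of Ensembl release 115 models on the same release 6 assembly (18164 genes after transposable elements were left out), with RefSeq sequence. Coordinates are 1-based. Replicate peaks were matched at 100 bp. Genes within 10 kb formed a cluster. Shares carry exact Clopper-Pearson 95% intervals from scipy 1.17.1 with Python 3.11.15, numpy 2.4.6 and pandas 2.3.3. The assignment of peaks to genes was checked on simulated data. With 1 group of 2 samples and no second condition, no test between conditions was possible. The labels call the samples biological replicates and do not say whether they came from separate fly cultures.

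The genes, lists and motifs were chosen with earlier results of these data known. Named genes were those with an IDR promoter peak, those of the strongest distal peaks, those just inside and outside the limits and the first by position of those with no peak. Some related genes were named outside this rule, among them kkv, ple, EcR, mmy and the hardening and pigment genes without a peak. Of the lists of related genes, 3 symbols (Cpap3-e, dp and AANAT1) matched no gene. Alternatives were other distances, the peaks above the median signal of each list, as many peaks as the IDR list, nearest TSS alone, each replicate left out, and, chosen after seeing the data, the set without Cpr, summits near other genes' TSSs counted as distal, and a background of genes with 1 TSS.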

Additional observations from a re-analysis of the deposited data

How the results depend on the processing

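The counts of genes with a peak moved with the distance limit and with the list. With 250 and 1000 bp in place of 500 bp, genes with a promoter peak numbered 2 and 8 in the IDR list (reported 5), 3 and 17 in the pooled list (11), 3 and 19 in replicate 1 (8), and 5 and 21 in replicate 4 (13). Distinct IDR promoter peaks then numbered 3 and 11 (6). Against these, 18.3 and 29% of all protein-coding genes had an IDR promoter peak. Among the peaks above the median signal of each list, promoter peaks were at 6 genes in the pooled list, 5 in replicate 1 and 7 in replicate 4. With as many of the strongest peaks as the IDR list, both replicates gave 5 at promoters, and 28 (replicate 1) and 26 (replicate 4) distal. With 2 kb in place of 5 kb, distal peaks were near 15 genes in the IDR list (25), 25 in the pooled list (41), 28 in replicate 1 (46) and 29 in replicate 4 (48). With 10 kb the IDR list gave 42. Against these, 21.3 and 50% of all protein-coding genes had a distal IDR peak at 2 and 10 kb. Distinct distal IDR peaks were 14 and 37 at these limits (23). Counting a gene only where its own TSS is the nearest protein-coding TSS gave 12 in the IDR list and 21 in the pooled list. The replicate 1 and replicate 4 lists gave 26 and 25. No such count was made over all protein-coding genes. Nor was one made for the pooled and replicate lists at other distances or above their median signal. These counts are therefore not read as results about the set.

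Leaving out either replicate gave 5 genes with a promoter peak both times, 26 to 28 genes with a distal peak, and a median promoter signal of 129 to 352 against 480, on the scale of the replicate kept. Of all protein-coding genes, 27.4% without replicate 1 and 24.5% without replicate 4 had a promoter peak. For distal peaks these shares were 33.7 and 33.8%. AACCGG within 25 bp of the summit was at 0 peaks. The number of clusters with an IDR peak was 6 of 17 at 5 kb and 5 of 14 at 20 kb. Counting summits near the TSS of a gene outside the set, an alternative chosen after seeing the data, gave 29 genes with a distal peak in the IDR list, 43 in the pooled list, 48 in replicate 1 and 51 in replicate 4. That count, too, was not made over all protein-coding genes. Of 67 alternatives, 37 stayed within 1.5 times of the reported value. No paired analysis was possible because there is 1 group and no test. Read depth is unknown, so a gene without a peak here is not shown to be unbound.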
